A study of Homo sapiens with 8 samples.

Results

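The 3 siRNA duplexes used to silence NFE2L2 in A549 cells were compared with each other, as 3 of the 8 samples of the study, with 1 library for each duplex. Genes were taken as members when at least 50 reads were counted on them in at least 1 of these 3 libraries, which left 13797 of 60291 genes, and 405 of the members reached 50 reads in only 1 of the 3 libraries. At the edge of this rule, 40 genes had exactly 50 reads in their highest NFE2L2 siRNA library and 40 had 49. A549 is an established lung adenocarcinoma line in which KEAP1, the inhibitor of NRF2, is mutated. In each siRNA transfection, 250000 cells received 5 nmol of an siRNA in Lipofectamine RNAiMAX. NFE2L2 siRNA duplexes 1, 2 and 3 were transfected once each, control siRNA duplexes 1 and 2 were each used in 2 transfections, and 1 mock transfection was left out of the comparisons. All groups share the same cell line, the same KEAP1 mutation and the same transfection reagent, and the 2 transfections of a control duplex were the only repeats.

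NFE2L2 encodes NRF2, a transcription factor that switches on genes for glutathione and thioredoxin metabolism, NADPH production, detoxification and iron handling through antioxidant response elements. KEAP1 normally holds NRF2 for degradation, so cells that lack working KEAP1 express these genes without oxidative stress. An siRNA guide strand directs cleavage of the mRNA that it matches along its whole length, and it can also lower other mRNAs whose 3′ untranslated region (UTR) pairs with the seed of the guide, bases 2 to 8 from its 5′ end. A response shared by several duplexes against one gene and a response seen with a single duplex are therefore usually read apart.

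Between 35525141 and 41645410 reads were counted on genes in each of the 7 siRNA libraries, and the counts were normalised with TMM factors from 0.957 to 1.02. Markers of epithelial cells were abundant, with 111143 to 267462 reads on KRT8 and KRT18 in each of the 3 NFE2L2 siRNA libraries, while the leukocyte gene PTPRC had 0 to 3 reads and the fibroblast gene DCN 0 to 1 read in the 7 libraries. The collagen gene COL1A1 had 331, 538 and 569 reads with duplexes 1, 2 and 3 and 143 to 169 with control siRNA, and its part in other results was not tested. Surfactant genes SFTPB and SFTPC and the lineage factor NKX2-1 had at most 6 reads in any of these libraries.

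All 3 duplexes lowered NFE2L2, and duplex 2 left more of it than the other 2. The NFE2L2 gene (ENSG00000116044.11, GRCh37 chr2:178083395-178257484, minus strand) had 1178 reads with duplex 1, 2044 with duplex 2 and 1262 with duplex 3, against 3974, 4100, 4166 and 4227 in the control libraries. After normalisation these levels were 32.9, 51.9 and 29.6 CPM (counts per 1000000 reads on genes), against 111 ± 4.33 CPM in the control libraries (SD, n = 4), so 29.5%, 46.6% and 26.6% of the control mean remained. The NFE2L2 and control libraries did not overlap. Duplex 2 was above the mean of duplexes 1 and 3 by 0.73 ± 0.07 on the log2 scale (SE, adjusted p = 0.000131 in edgeR's quasi-likelihood test with Benjamini-Hochberg adjustment over all 17811 genes tested, two-sided, as for every adjusted p given here). Duplex 3 differed from duplex 1 by −0.15 ± 0.09 (adjusted p = 0.267), so the order of these 2 was not resolved. Each of these tests takes the spread of a duplex transfected once to be that of the control repeats, because no NFE2L2 duplex was repeated.

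The 3 NFE2L2 siRNA libraries differed from each other far more than repeats of a control duplex did. Of the 13797 genes, 39 and 16 were at least 2-fold apart between the 2 transfections of control duplex 1 and of control duplex 2, and 86 to 212 were so between libraries of the 2 control duplexes. Duplexes 1 and 2 differed at least 2-fold in 796 genes, duplexes 1 and 3 in 526 and duplexes 2 and 3 in 447. The pair with the fewest such genes was still above every pair of control libraries. The SD of the log2 ratio over the members gave the same order, at 0.170 to 0.210 between repeats, 0.253 to 0.320 between control duplexes and 0.416 to 0.504 between NFE2L2 duplexes. Between an NFE2L2 siRNA library and a control library, 490 to 993 genes were at least 2-fold apart, a range that includes the 796 genes between duplexes 1 and 2.

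**Figure D1:**
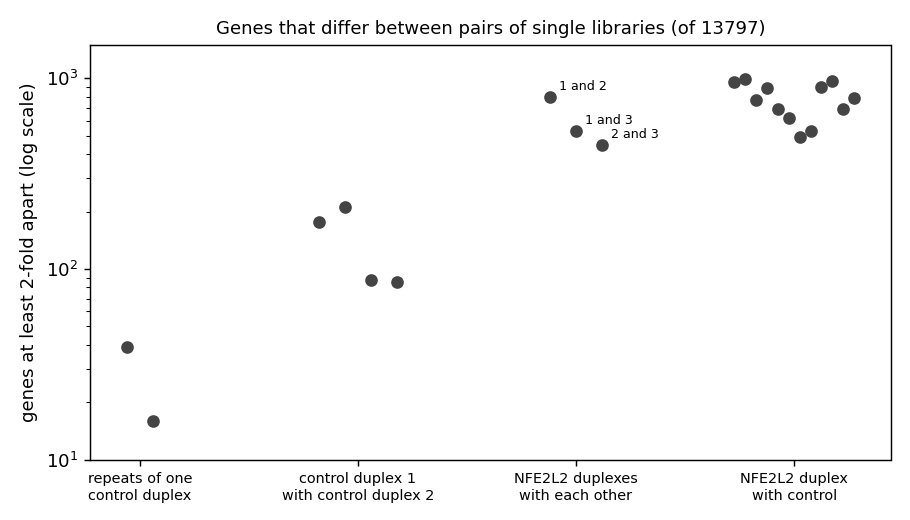
Number of the 13797 member genes at least 2-fold apart (log scale) for every pair of single libraries, by kind of pair, with each point 1 pair and the NFE2L2 duplex numbers written beside their points. The 3 pairs of NFE2L2 duplexes lie at 447 to 796 genes, above the 16 and 39 genes of the control repeats and the 86 to 212 genes of different control duplexes.

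Each duplex was then compared with the mean of the other 2. With an adjusted p under 0.01, 2625 members differed for duplex 1 (14.8% of all tested genes were called in this comparison), 2081 for duplex 2 (11.7%) and 1172 for duplex 3 (6.58%). The 3 comparisons use the same libraries with changed signs and are not independent of each other. Between the 2 control duplexes, 499 members were called (2.82%), and 1798 members differed between duplex 3 and duplex 1 (10.1%). Changes of at least 2-fold were fewer, with 369 called members for duplex 1, 342 for duplex 2 and 155 for duplex 3. These counts rest on how the spread is estimated. Treating the 4 control libraries as 1 group left 360, 436 and 73 members called, and without either library of control duplex 2 the same edgeR test called 0 for any duplex, although 3642 to 5134 members had an unadjusted p under 0.05. Without either library of control duplex 1 the counts were 4952 and 4954, 4230 and 4225, and 3467 and 3465.

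The NRF2 target genes fell in the mean of the 3 duplexes, in 41 of 42 genes, and the median fall was smallest with duplex 2. All 42 genes of a list of known NRF2 targets were members. Their median difference from control siRNA was −1.87 with duplex 1, −1.54 with duplex 2 and −1.78 with duplex 3 on the log2 scale, where the median of all members was 0.01, 0.02 and 0.01. Against control, 41 of the 42 fell in the mean of the 3 duplexes (28% of all genes were called in this comparison and 15% were called lower), and the exception GSTM3, a glutathione transferase, had 254, 265 and 278 reads with duplexes 1, 2 and 3 against 262 to 284 in the control libraries. The list was made with earlier results of these data known, and its direction is no independent evidence.

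GCLC, which encodes the catalytic subunit of the enzyme that starts glutathione synthesis, fell by the same amount with the 3 duplexes within its SE. It had 1770, 1940 and 2114 reads with duplexes 1, 2 and 3 and 6909 to 8076 with control siRNA, which gave differences from control of −2.03, −2.04 and −2.03, each ± 0.08 (SE). PTGR1, a reductase of reactive lipids, had differences of −2.67, −2.77 and −2.80, and SQSTM1, an autophagy receptor in the NRF2 pathway, had −1.25, −1.22 and −1.35. None of these 3 genes passed the threshold in any comparison between duplexes.

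A smaller set of targets fell less with duplex 2, the duplex that left most NFE2L2. Compared with duplexes 1 and 3, 11 of the 42 targets were higher with duplex 2 (7.09% of all genes were called higher) and 2 were lower. Treating the 4 control libraries as 1 group left 5 targets called higher, beside 289 of all 13797 members. DESeq2 called 14 targets higher, beside 970 of all members. HMOX1, which encodes haem oxygenase 1, had 992 reads with duplex 1, 2353 with duplex 2 and 1684 with duplex 3 against 5932 to 6126 with control siRNA. Duplex 2 exceeded the mean of the others by 0.85 ± 0.07 (adjusted p = 4.82e-05). For TRIM16L, a relative of TRIM16 annotated as a pseudogene, the reads were 616, 2339 and 1057 against 10332 to 12602, and the difference was 1.52 ± 0.09 (adjusted p = 1.12e-05). In both genes duplex 2 was the least reduced library and every NFE2L2 siRNA library was below every control library. TRIM16L can share reads with TRIM16, and the AKR1C genes with each other, so their single values are uncertain.

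SLC7A11, the cystine transporter that supplies glutathione synthesis, went the other way. It had 3196 reads with duplex 1, 1295 with duplex 2 and 2525 with duplex 3 against 16262 to 21611 with control siRNA, and duplex 2 differed from the mean of the others by −1.14 ± 0.11 (adjusted p = 7.67e-05). AKR1C3, an aldo-keto reductase, was also lowest with duplex 2, at 15086 reads against 18601 and 22917 with duplexes 1 and 3 (−0.46 ± 0.08, adjusted p = 0.00349). The most reduced library of a target was thus not always that with least NFE2L2. Duplex 2 was the least changed in the direction of the mean of the 3 duplexes in 26 of the 42 targets, beside 5578 of the 13797 members. This count goes by direction, so a duplex 2 library on the opposite side of control is included.

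Genes of DNA replication separated the duplexes more than the NRF2 targets did. All 20 genes of a replication list were members, and their median difference from control was −1.11 with duplex 1, −0.08 with duplex 2 and −0.77 with duplex 3. Compared with the other 2 duplexes, 17 of the 20 were higher with duplex 2 and 18 were lower with duplex 1. Of all genes, 7.09% were called higher for duplex 2 and 8.32% lower for duplex 1. With the 4 control libraries as 1 group, 12 and 8 of the 20 were called, beside 289 and 255 of all 13797 members. CCNE2, which encodes the S-phase cyclin E2, had 82 reads with duplex 1, 763 with duplex 2 and 242 with duplex 3 against 466 to 617 with control siRNA. Duplex 2 was above every control library and the other 2 below every one, a difference of 2.42 ± 0.17 between duplex 2 and the others (adjusted p = 1.7e-05). CDT1, which licenses replication origins, had 233, 912 and 388 reads against 642 to 679, and duplex 2 was again above all control libraries. For MCM4, a subunit of the replicative helicase, the reads were 2834, 8281 and 3251 against 7080 to 7618 (1.44 ± 0.08 for duplex 2, adjusted p = 7.16e-06). MCM2, another helicase subunit, had 1404, 3705 and 2600 reads against 3090 to 3366 and was intermediate with duplex 3. TYMS, thymidylate synthase, had another order, with 290, 391 and 747 reads against 642 to 817, so that duplex 3 was the one within the control range.

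Mitosis genes were ordered in the same way. All 18 genes of a mitosis list were members, with a median difference from control of −0.76, 0.07 and −0.51 for duplexes 1, 2 and 3. All 18 were higher with duplex 2 than with the other 2 (7.09% of all genes were called higher). With duplex 1, 12 were lower (8.32% of all genes). These counts became 7 and 1 with the 4 control libraries as 1 group, where 289 and 255 of all 13797 members were called. MKI67, the proliferation marker Ki-67, had 2265 reads with duplex 1, 7354 with duplex 2 and 5913 with duplex 3 against 4873 to 7093 with control siRNA, so that duplex 1 alone was below the control range. CDK1, the kinase that drives entry into mitosis, had 2716, 5380 and 2571 reads against 4790 to 5787 and was below the control range with duplexes 1 and 3. With 1 transfection for each duplex, a property of the duplex and a property of that culture, such as its growth, cannot be told apart.

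**Figure D2:**
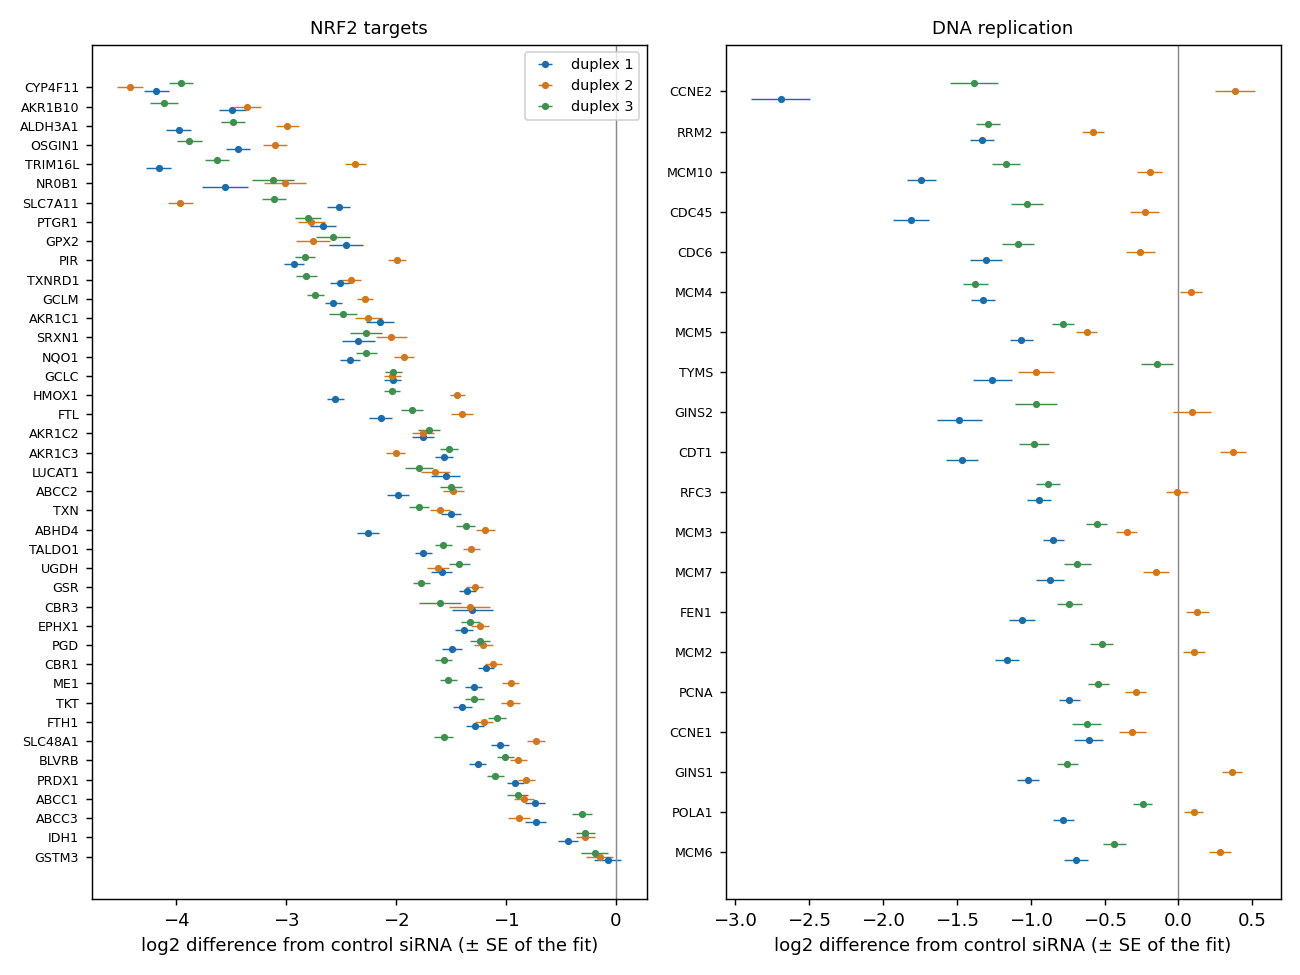
Log2 difference of each NFE2L2 siRNA duplex from control siRNA, with the SE of the fit as bars, for 41 of the 42 NRF2 targets on the left and the 20 DNA replication genes on the right, each with its own horizontal scale and 1 colour for each duplex. The medians over the 42 targets are −1.87, −1.54 and −1.78 for duplexes 1, 2 and 3, while in replication genes duplex 2 lies near 0 (median −0.08) and duplex 1 lies at −1.11.

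Among the partners and regulators of NRF2, 11 of 12 genes were members and 6 fell against control, beside 15% of all genes called lower. With the 4 control libraries as 1 group, 4 fell, beside 1033 of all 13797 members. MAFK, a small MAF protein that pairs with NRF2 on DNA, had 3125 reads with duplex 1, 7015 with duplex 2 and 6572 with duplex 3 against 5744 to 7237 with control siRNA. Only duplex 1 was outside the control range for MAFK, by −0.93 ± 0.08 from the other duplexes (adjusted p = 5.64e-05). Its relative MAFG had 2076, 2061 and 2028 reads against 4229 to 4483 and passed the threshold in no comparison between duplexes. KEAP1 had 1377, 2376 and 1909 reads against 2897 to 3380, with duplex 2 above the others by 0.54 ± 0.07 (adjusted p = 0.000723). The related factor NFE2L1 had 9800, 11545 and 8745 reads against 9174 to 9811.

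Of 30 genes in a list of interferon-responsive and RNA-sensing genes, 21 were members, and their median difference from control was 0.08, 0.24 and 0.27. In the comparison of duplexes 1, 2 and 3 with the others, 4, 2 and 2 of the 21 passed the threshold, where 14.8%, 11.7% and 6.58% of all tested genes did. MX1, an antiviral GTPase induced by interferon, had 48, 51 and 172 reads against 25 to 52 and was raised with duplex 3 (1.61 ± 0.22 from the others, adjusted p = 0.0014). IFI35 had 179 reads with duplex 1, below the 312 to 340 of the control libraries, and 507 and 509 with duplexes 2 and 3, above them. IFNB1 and IFNL1, which encode interferons, had 0 reads in all 7 libraries. In the small RNA machinery, where all 13 genes were members, DROSHA, the nuclease that processes primary microRNAs, had 846 reads with duplex 2, 1142 and 1681 with duplexes 1 and 3 and 1306 to 1538 with control siRNA.

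All 18 genes of a cholesterol synthesis list were members, 14 rose against control (13% of all genes were called higher), and their median difference from control was 0.36, 0.50 and 0.10 with duplexes 1, 2 and 3. Compared with the other 2 duplexes, 4 were higher and 3 lower with duplex 1, 4 higher and 1 lower with duplex 2, and 1 higher and 5 lower with duplex 3. In these comparisons 14.8%, 11.7% and 6.58% of all tested genes were called in either direction. With the 4 control libraries as 1 group, 0 genes were called lower with duplex 1 and 2 higher with duplex 2, beside 255 and 289 of all 13797 members. INSIG1, which retains the sterol sensor in the endoplasmic reticulum, had 4076, 2450 and 5550 reads against 2763 to 2930, so that duplex 2 was below the control range and the other 2 above it. The chemokine gene CCL2 had 1011, 1725 and 685 reads against 493 to 632, highest with duplex 2, and CXCL5 had 13617, 6576 and 11185 against 8804 to 11682, lowest with duplex 2.

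For p53 targets, all 17 of which were members, the medians were 0.15, −0.07 and −0.08, and 6 were higher with duplex 1 than with the others (6.51% of all genes were called higher in this comparison). SESN1, a p53-induced regulator of nutrient signalling, had 1647, 948 and 656 reads against 751 to 913, a difference of −1.58 ± 0.10 between duplexes 3 and 1 (adjusted p = 1.9e-05). All 16 genes of the ATF4 stress response were members, with medians of −0.39, −0.25 and −0.24. Of 14 cytokine genes 10 were members, with medians of −0.07, −0.01 and −0.06, and of the 13 genes of the mitochondrial genome 0 passed the threshold in a comparison between duplexes with edgeR, DESeq2 or limma-voom, with 8, 6 and 8 at an unadjusted p under 0.05, while their medians were 0.03, −0.18 and 0.24. KRT18 and KRT19, keratins of simple epithelia, were highest with duplex 3, at 214941 and 4831 reads against 122601 to 131980 and 1475 to 1842 with control siRNA. NEAT1, a nuclear long non-coding RNA, had 70054, 39887 and 71916 reads against 40690 to 58849.

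Genes shifted by a single duplex were defined by a log2 difference of at least 1 from the other 2 duplexes with an adjusted p under 0.01, a library outside the range of the 4 control libraries on the same side, and the other 2 duplexes within 0.5 of the control mean. The numbers below describe this choice and are no test of it. Duplex 1 had 145 such genes, duplex 2 had 80 and duplex 3 had 65. Most of them were reduced, with 122 reduced and 23 increased genes for duplex 1, 70 and 10 for duplex 2, and 44 and 21 for duplex 3. The median shift of the reduced genes was −1.27, −1.24 and −1.26. By fold and range alone, without a p, the classes held 171, 92 and 92 genes, of which 81.9%, 82.6% and 58.7% were reduced, a rule added after the data were seen. No gene was in a single-duplex class without either library of control duplex 2. Of the members called with at least a 2-fold difference, 205 of 369 for duplex 1, 224 of 342 for duplex 2 and 83 of 155 for duplex 3 were in neither this class nor the graded class described later. None of the 42 NRF2 targets and none of the 20 replication genes was in a single-duplex class. This follows largely from the rule, which holds the other 2 duplexes within 0.5 of control. The target medians were −1.87, −1.54 and −1.78, and the replication medians −1.11 and −0.77 with duplexes 1 and 3. Whether single duplexes also acted on these genes was not tested.

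With duplex 1 alone, the most reduced genes were PRR22, RTN3P1, ENSG00000185928.7 and TPD52. PRR22, a proline-rich protein gene, had 10 reads with duplex 1, 69 and 91 with duplexes 2 and 3 and 76 to 91 with control siRNA. TPD52, tumour protein D52, had 1047, 5648 and 5024 reads against 4851 to 5987, a shift of −2.15 ± 0.12, and ENSG00000185928.7, without a symbol in the annotation used, had 55, 345 and 296 against 223 to 323. RTN3P1 is a processed pseudogene with 27, 141 and 183 reads against 93 to 131, and its parent RTN3, an endoplasmic reticulum protein gene that was looked up after these values were seen, had 1722, 5733 and 6515 against 4581 to 5344, so the reads of the 2 genes may not be separable. The most increased genes were CEMIP, which acts in hyaluronan turnover, with 2174, 403 and 609 reads against 303 to 495, and GRHL3, CST1 and SCUBE2 with shifts of 1.90, 1.77 and 1.62. In each of these genes duplex 1 lay outside all 6 other siRNA libraries, as the rule for the class requires. A pair of transcription factor genes of the cell cycle was in this class, chosen after their values were seen. MYBL2 had 676, 3727 and 2553 reads against 2677 to 3198, and TFDP1, the partner of E2F factors, had 1079, 3650 and 2951 against 2526 to 3013.

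With duplex 2 alone, TRIM29, TIMP1, CHMP2B and ECH1 were reduced most. TRIM29, a tripartite motif protein gene, had 53 reads with duplex 2, 364 and 500 with duplexes 1 and 3 and 300 to 393 with control siRNA, a shift of −3.02 ± 0.23. For TIMP1, an inhibitor of matrix metalloproteinases, the reads were 3717, 826 and 3831 against 2574 to 3236. CHMP2B, a subunit of the ESCRT-III membrane scission complex, had 3356, 820 and 3956 against 3435 to 3818, and ECH1, an enzyme of fatty acid oxidation, had 4606, 1159 and 5340 against 3472 to 5191. By the same rule, all 4 were lower with duplex 2 than in every other siRNA library. Among the increased genes were RCOR2, ADRB1 and SEMA7A with 192, 136 and 177 reads with duplex 2 and 51 to 102, 49 to 59 and 53 to 84 with control siRNA.

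With duplex 3 alone, APIP, LAGE3, LAMTOR1 and AVPI1 were reduced most. APIP, an enzyme of methionine salvage, had 1455, 1154 and 268 reads with duplexes 1, 2 and 3 against 1278 to 1453, a shift of −2.46 ± 0.10. LAGE3, a subunit of the KEOPS tRNA modification complex, had 729, 904 and 209 against 786 to 1028, and LAMTOR1, the membrane anchor of the Ragulator complex, had 2842, 2950 and 760 against 2517 to 2689. For AVPI1 the reads were 2436, 3116 and 924 against 2928 to 3552. Duplex 3 was the lowest of the 7 libraries for all 4 genes, which the rule again requires. Among increased genes, CCN5, a matricellular protein gene, had 846, 1080 and 3712 reads against 691 to 773, MX1 is described above, and ODF3L1 and the pseudogene RPL32P18 had 52 and 140 reads with duplex 3 and at most 18 and 30 with control siRNA. RPL32P18 can share reads with RPL32.

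**Figure D3:**
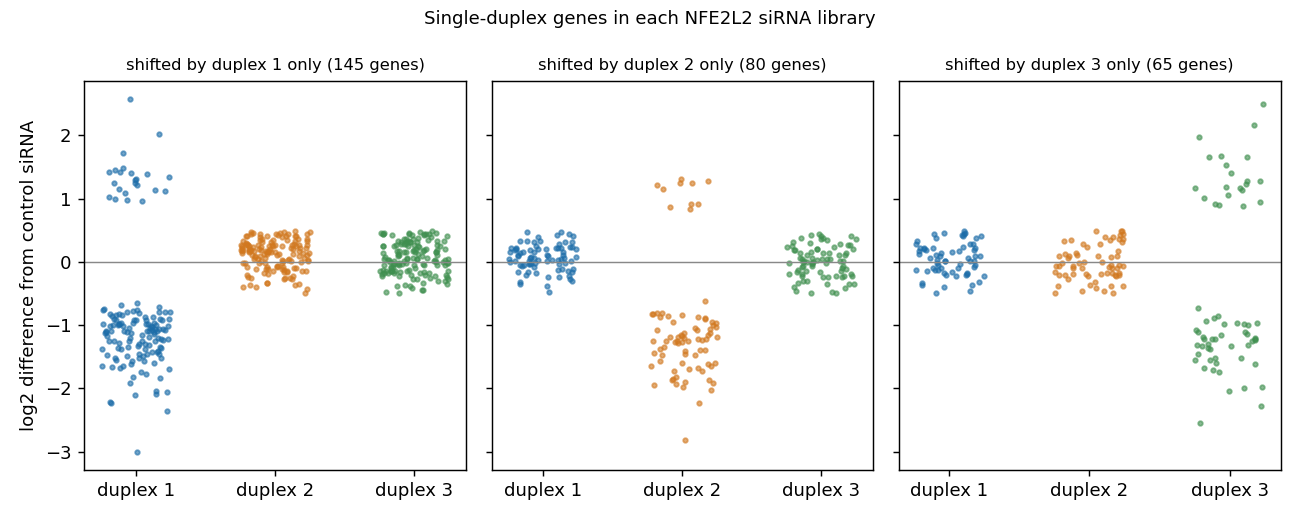
Log2 difference from control siRNA in each of the 3 NFE2L2 siRNA libraries for the 145, 80 and 65 genes shifted by duplex 1, 2 or 3 only, with each point 1 gene. The rule that chose the genes holds the other 2 duplexes within 0.5 of 0, and most points of the chosen duplex lie below 0, with 122 of 145, 70 of 80 and 44 of 65 genes reduced.

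The 3′ UTRs of the reduced single-duplex genes were searched for shared words of 7 letters. Of the members, 12118 had a 3′ UTR in the canonical transcript of the annotation, and for each duplex all words were ranked by their share among the 3′ UTRs of its reduced genes minus their share among all members. The ranking was made after the data were seen and is a description. For duplex 1 the first word was AAACACC, in 42 of 107 genes (39.3%, 95% Wilson interval 30.5 to 48.7) against 11.2% of all members. Duplex 2 had GACAATG first, in 46 of 69 genes (66.7%, interval 54.9 to 76.6) against 8.57%. Duplex 3 gave GCTACTA, in 36 of 42 genes (85.7%, interval 72.2 to 93.3) against 5.36%. Words of 6 and of 8 letters gave overlapping words in the first place. The first word was also the same for the classes made by fold and range alone and for those made with DESeq2, where 36.1% to 90% of the reduced genes held it.

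Among the 3 sets of reduced genes, each word was common only in the set of its own duplex. Each word was picked for its high share in that set, and the rule keeps the 3 sets apart. The contrast between sets is therefore a description and no test. The word of duplex 1 was in 7.25% and 4.76% of the 3′ UTRs of genes reduced by duplexes 2 and 3, that of duplex 2 in 3.74% and 7.14% of those reduced by duplexes 1 and 3, and that of duplex 3 in 0.935% and 4.35% of those reduced by duplexes 1 and 2. In the genes increased by the same duplex alone, the words were in 2 of 20, 1 of 9 and 0 of 18. The word of duplex 1 was in 2 of 9 and 3 of 18 genes increased by duplexes 2 and 3. That of duplex 2 was in 1 of 20 and 4 of 18 genes increased by duplexes 1 and 3. That of duplex 3 was in 4 of 20 and 1 of 9 genes increased by duplexes 1 and 2. The median 3′ UTR was 973, 1723 and 2045.5 bases long in the genes reduced by duplexes 1, 2 and 3 and 1358 in all members, and the sites per 1000 bases were 0.315, 0.304 and 0.337 in the genes reduced by the matching duplex against 0.0630, 0.0469 and 0.0283 in all members. Of the NRF2 targets with a 3′ UTR, 3, 0 and 1 of 40 held the words of duplexes 1, 2 and 3, and of the 20 replication genes 2, 5 and 2 did.

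**Figure D4:**
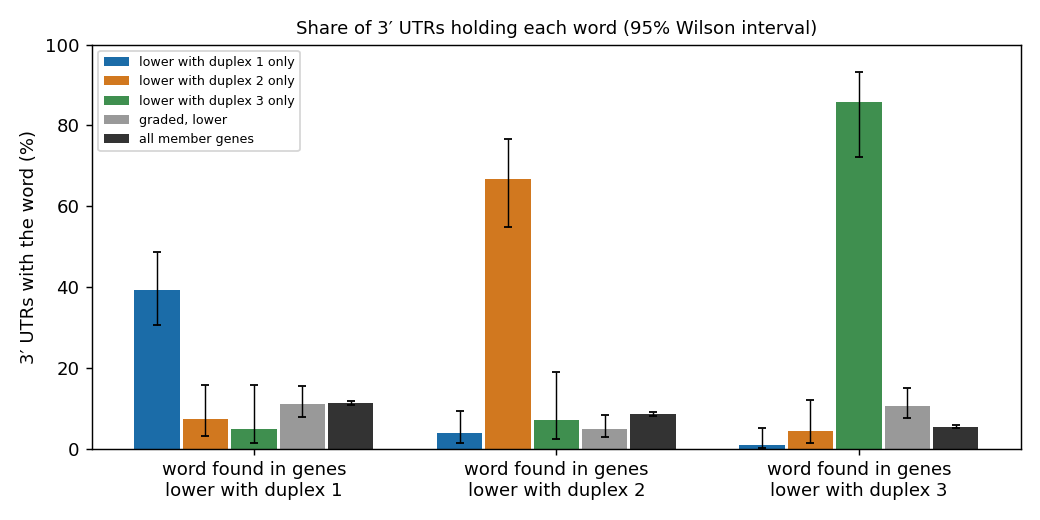
Percent of 3′ UTRs that hold the word found for each duplex, in genes reduced by duplex 1, 2 or 3 only, in graded genes lower than control and in all members, with 95% Wilson intervals as error bars. The word of a duplex is in 39.3%, 66.7% or 85.7% of the genes reduced by that duplex and in at most 11.2% of any other set drawn. Each word was picked for its share in the matching set, and the intervals do not cover that choice.

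All 3 words also occur in the NFE2L2 mRNA, each once. In the canonical transcript of 2446 bases the word of duplex 1 starts at base 1332 in exon 5, that of duplex 2 at base 545 in exon 3 and that of duplex 3 at base 623 in exon 4, all in the coding sequence. Of all 16384 words of 7 letters, 13% are found in this mRNA. The sequences of the duplexes are not given in the sources used here, so whether these words are the seed matches of their guides was not tested. The windows are shown because they are where such a match would lie in the intended target, on the minus strand of GRCh37 with the word in capitals, and the window of duplex 2 crosses the junction of exons 3 and 4.
NFE2L2, duplex 1 word, chr2:178096141-178096165: aacagaatggtcctaAAACACCagt
NFE2L2, duplex 2 word, chr2:178097311-178098001, spliced: ttcccgtttgtagatGACAATGagg
NFE2L2, duplex 3 word, chr2:178097233-178097257: agcccagtcttcattGCTACTAatc

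The same words in 3′ UTRs of genes reduced by 1 duplex are shown for comparison, in GRCh37 and on the strand of the gene. For duplex 1, PRR22 lacks the word, RTN3P1 and ENSG00000185928.7 had no 3′ UTR in the annotation used, and TPD52 holds 2 sites that are not printed, so 3 other genes were chosen for the word after their values were seen. XK, a membrane transporter gene, had 45 reads with duplex 1 against 181 to 211 with control siRNA, LCLAT1, an acyltransferase, had 1185 against 4282 to 5021, and MAPKAPK3, a kinase, had 362 against 1237 to 1387.
XK, chrX:37589596-37589620, plus strand: caatcgtattacataAAACACCctt
LCLAT1, chr2:30866955-30866979, plus strand: agatcattatgtgcaAAACACCaag
MAPKAPK3, chr3:50686687-50686711, plus strand: catccagatagtaatAAACACCatt
For duplex 2, TIMP1 and ECH1 hold 1 site, CHMP2B holds 2, and TRIM29, the most reduced gene of this duplex, holds none.
TIMP1, chrX:47446144-47446168, plus strand: cccatctttcttccgGACAATGaaa
CHMP2B, chr3:87303128-87303152, plus strand: cttttgccaaagaatGACAATGatg
ECH1, chr19:39306117-39306141, minus strand: agtttataactttatGACAATGagt
For duplex 3, APIP, LAMTOR1 and AVPI1 are shown, and AVPI1 holds 2 copies.
APIP, chr11:34904157-34904181, minus strand: gaaatttttcatgatGCTACTAatt
LAMTOR1, chr11:71808758-71808782, minus strand: acagtaccctaacctGCTACTAatc
AVPI1, chr10:99437296-99437320, minus strand: catttcaccactcatGCTACTAatc
The longest run shared with the NFE2L2 mRNA around the word ranged from 7 to 12 bases over the sites examined, of which not all are printed. All of these sites are in reduced genes, and no run is given for sites in other genes, so the lengths have no comparison. The run was 12 bases in LAMTOR1 and AVPI1, 11 in ECH1, 10 in APIP and CHMP2B, 9 in XK and LCLAT1, and 8 in MAPKAPK3 and TIMP1.

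Genes with a word were also shifted as a whole, beyond the single-duplex classes. Members without the word of duplex 1 had a median difference of 0.00 between duplex 1 and the others, the 1200 with 1 site had −0.13 and the 162 with 2 or more had −0.17. For the word of duplex 2 the medians were 0.04 in 11080 genes, −0.19 in 938 and −0.29 in 100, and for that of duplex 3 they were 0.02 in 11468, −0.16 in 606 and −0.14 in 44. With all single-duplex genes left out, the medians of genes with 1 site were −0.12, −0.17 and −0.14. The share of genes called lower with the matching duplex was 10.3%, 4.65% and 3.04% without the word and 22.5%, 25.2% and 22.8% with 1 site. These shares include the single-duplex genes, from which the words were chosen and which are called by rule. They are therefore no separate support for the words. Genes with a word had longer 3′ UTRs, with medians of 2990.5, 3310 and 3507.5 bases for 1 site against 1194, 1241 and 1278.5 for none, and the part of this length in the shift was not tested. In genes with 1 site the other 2 duplexes were above control in the median. Those with the duplex 2 word, for example, had a median difference from control of −0.13 with duplex 2 and of 0.05 and 0.06 with duplexes 1 and 3.

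**Figure D5:**
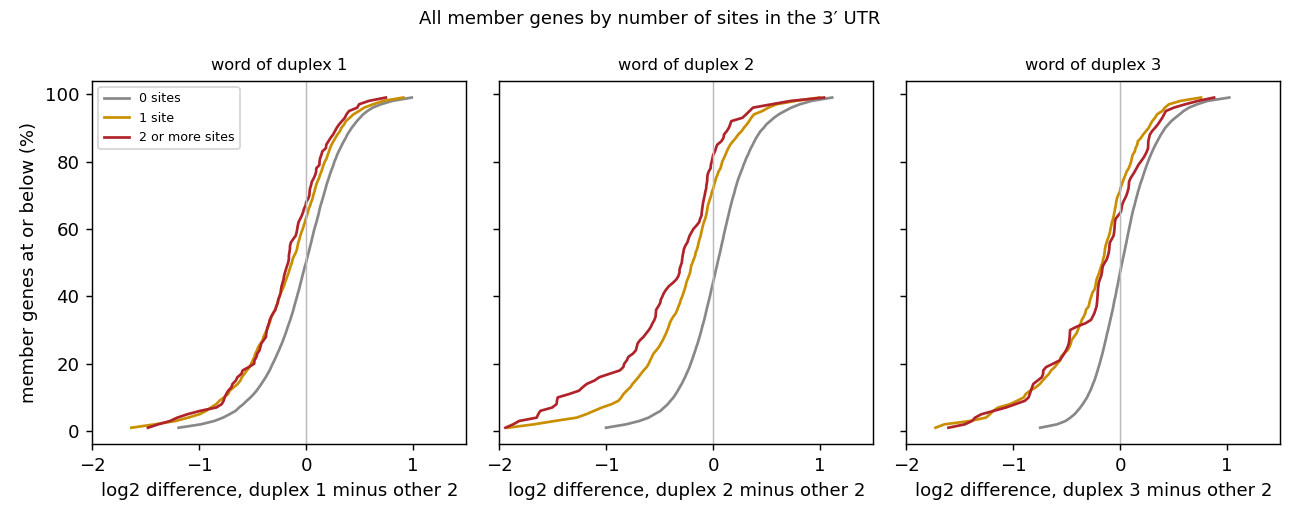
Percent of member genes at or below each log2 difference between a duplex and the other 2, drawn from the 1st to the 99th percentile for genes with 0, 1 and 2 or more sites of the word of that duplex in the 3′ UTR. The curves of genes with sites lie to the left of the curve without, with medians of −0.13 and −0.17 against 0.00 for duplex 1, −0.19 and −0.29 against 0.04 for duplex 2, and −0.16 and −0.14 against 0.02 for duplex 3. The single-duplex genes, from which the words were chosen, are included.

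A graded response was defined as a change against control in the mean of the 3 duplexes, in the same direction with each duplex, that was smaller with duplex 2 (adjusted p under 0.01 for both comparisons). There were 419 such genes, 278 lower and 141 higher than control. In 369 of the 419, duplex 2 was within 0.5 of control, so most were changed by duplexes 1 and 3 and little by duplex 2, and 29 were also in a single-duplex class. Duplex 1 was farther from control than duplex 3 in 272 and nearer in 147, while the NFE2L2 levels of these 2 duplexes were not resolved. With the 4 control libraries as 1 group, 81 genes were called.

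The 8 graded genes with the largest difference of duplex 2 included TRIM16L and CEMIP, given above. VBP1, a subunit of the prefoldin chaperone, had 803, 3193 and 1305 reads with duplexes 1, 2 and 3 against 3323 to 3729, and EXO1, an exonuclease of DNA repair, had 529, 1970 and 1023 against 2288 to 2617. Both were below the control range with all 3 duplexes. Of the increased genes, LGR6, an R-spondin receptor, had 1156, 299 and 747 reads against 200 to 390, the keratin gene KRT20 had 57, 25 and 106 against 7 to 15, and NKAIN4 had 260, 160 and 607 against 110 to 145. Duplexes 1 and 3 were above the control range in these 3 genes, while duplex 2 was inside it for LGR6.

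A graded fall was not the rule among strongly reduced genes. Of the 179 members that were lower than control by at least 1 in the mean of the 3 duplexes, 36 were called higher with duplex 2 than with duplexes 1 and 3, 7 were called lower, and 112 were called in none of the 3 comparisons between duplexes. Among all 13797 members, 1257 were called higher and 824 lower with duplex 2, so calls toward control were more frequent in the 179. The number of all members called in none is not given here. Duplex 2 was the least changed in the direction of the mean of the 3 duplexes in 84 of the 179, beside 5578 of all 13797 members. A call that misses the threshold does not show that the duplexes acted alike.

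Between duplexes 3 and 1, which left 26.6% and 29.5% of NFE2L2, the largest called differences were those of PRR22 (2.92 higher with duplex 3) and APIP (−2.69), both single-duplex genes, and of ALOX5 and GJB2. ALOX5, the 5-lipoxygenase of leukotriene synthesis, had 7, 17 and 53 reads with duplexes 1, 2 and 3 against 13 to 22 (2.65 ± 0.53, adjusted p = 0.0072). GJB2, a gap junction connexin, had 94, 62 and 23 reads against 13 to 29, so that duplexes 1 and 2 were above the control range and duplex 3 was within it (−2.27 ± 0.34, adjusted p = 0.00168).

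The antioxidant response element core TGACNNNGC was looked for on both strands of promoter windows from RefSeq (GRCh38.p14, 250 bases before to 50 after the start of each gene). It was in 9 of the 30 NRF2 targets with a window (30%) and in 15.1% of all members with one. The share was 17.3%, 20.7% and 12.9% in the genes reduced by duplex 1, 2 or 3 alone, near that of all members. Members lower than control by at least 1 in the mean of the 3 duplexes had a share of 17.1%. This was also near that of all members. Response elements outside the windows were not looked for, so the shares cannot say which of these genes have one. Such a match is a description of the window and no evidence of binding.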

How the data were processed

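Per the labels and the study's methods, strand-specific libraries of total RNA depleted of ribosomal RNA were sequenced. The authors aligned the reads to hg19 (HISAT 0.1.6 in the submitters' processing notes) and deposited, for each library, raw counts of reads per gene of GENCODE v19 from HTSeq-count (HTSeq 0.6.0), stranded and without normalization. Reads not assigned to a gene were left out, and 60.3% to 65.6% of the listed reads were on genes in the 7 libraries compared. Names and positions came from GENCODE v44 on GRCh37, in which 55538 identifiers were found. The alignments could not be checked here, and reads of near-identical genes may be split.

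The 17811 genes that reached 10 reads in any of the 7 libraries were fitted with edgeR 4.0.16 in R 4.3.3 (TMM, glmQLFit and glmQLFTest, 5 duplex groups, 2 residual degrees of freedom, adjusted p under 0.01). The SE was derived from the F statistic of each contrast. Log2 CPM for library pairs and ranges used a prior count of 2. DESeq2 1.42.0 and limma-voom (limma 3.58.1) were alternatives, and the tests were run on simulated data first. Canonical 3′ UTRs were taken from the transcript sequences of GENCODE v44 on GRCh37, on the strand of the gene. Wilson intervals cover counting error only. The members and gene lists were chosen with earlier results of these data known, and 231 of 235 list genes were matched. Named by rule were NFE2L2, the list genes, the 4 most reduced and 4 most increased genes shifted by each duplex alone, 8 graded genes by the difference of duplex 2, and 2 genes in each direction for duplex 3 against 1, of which some are not reported here. The labels do not say whether the transfections were made on separate days. The p-values rest on the spread between the 2 transfections of each control duplex, because no NFE2L2 duplex was repeated.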

Additional observations from a re-analysis of the deposited data

Results flagged for a closer look

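The response differed between duplexes by a test of the difference itself in 2625 member genes for duplex 1, 2081 for duplex 2 and 1172 for duplex 3, each against the mean of the other 2 duplexes. The mock transfection, which entered no comparison, was beyond all 4 control siRNA libraries in CPM, on the side of the shift, in 31 of the 145 genes of duplex 1, 31 of the 80 of duplex 2 and 18 of the 65 of duplex 3, and in none of these was it 2-fold from their mean log2 level. The share of all members with the mock so placed is not given here, so these counts are not read as a property of these genes. Groups of 1 or 2 libraries were too small to look for a library that stood apart from its group.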

How the results depend on the processing

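The number of calls depended on the estimate of the spread far more than on the tool. In the order of duplex 1, 2 and 3 against the others, duplex 3 against 1 and all 3 against control, where 2625, 2081, 1172, 1798 and 4753 members were called, a threshold of 0.05 gave 4700, 3868, 2898 and 3822 for the comparisons between duplexes. Keeping genes with at least 1 read gave 452, 490, 45, 107 and 2366, and treating the 4 control libraries as 1 group gave 360, 436, 73, 135 and 1836, all of which were also called with the duplexes as groups for duplexes 1, 2 and 3 (360, 436 and 73 shared). With single libraries left out, the ranges were 0 to 4954, 0 to 4230, 0 to 3467, 0 to 4219 and 0 to 6232, with 0 reached without a library of control duplex 2, when the spread rests on the repeats of control duplex 1 alone, at 1 pair. Without replicate 1 of control duplex 2, 40 members were still called against control. The single-duplex classes ranged from 0 to 167, 0 to 90 and 0 to 87 genes and the graded class from 0 to 1055. With the filter of 1 read, duplexes 1 and 3 had 92 and 21 single-duplex genes and 82 genes were graded, and with the controls as 1 group the numbers were 86, 25 and 81. A threshold of 0.05 gave 863 graded genes. The cause of the change with the filter was not tested. Among genes with at least 200 reads, the median pair of libraries differed at least 2-fold in 5.5 genes for control repeats, 59.5 for different control duplexes, 319 for NFE2L2 duplexes and 487.5 for NFE2L2 against control, in the same order as among all members. DESeq2 gave 2034, 1657 and 1007 calls for the 3 duplexes, limma-voom 2532, 2066 and 1170. For single genes, 242 comparisons were rerun, those of NFE2L2, the single-duplex, graded and 3-against-1 genes named and the list genes called between duplexes. Of these, 27 missed the threshold with DESeq2, 10 with limma-voom and 1 with DESeq2 size factors, with no change of direction. Without either library of control duplex 2, every one of these comparisons missed the threshold, as did every member. The adjusted p-values given for single genes therefore rest on both repeats of that duplex. With 1 of the other 2 duplexes left out, so that a duplex is set against the remaining one, 295 kept their side of the threshold, 91 missed it and 4 changed sign, all without duplex 2. These were TP53INP1 (−0.13), MCM4 (0.06) and INSIG1 (−0.19) for duplex 1 and GINS1 (0.26) for duplex 3. No paired analysis was possible because each NFE2L2 duplex was transfected once, so that the groups compared share fewer than 2 replicate numbers. The libraries held 35525141 to 41645410 reads on genes, and counting error is largest in the genes near 50 reads.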
